A study of Mus musculus with 12 samples.

Results

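The pathway described here builds the dolichol-linked N-glycan and transfers it to proteins. Its 38 genes, of the 24255 genes in the expression table, were grouped by their known function. They comprise 5 genes of dolichol phosphate supply, 4 of UDP-GlcNAc synthesis, 5 of mannose supply, 6 of assembly on the cytosolic face of the endoplasmic reticulum, 8 of assembly in its lumen and 10 oligosaccharyltransferase subunits. RNA-Seq was done on 12 libraries, each of 20 germinal vesicle-stage oocytes pooled from C57BL/6 females of 3 weeks, 46 h after priming with 5 IU PMSG. The groups, of 3 libraries each, were WT, D166G point mutants (MUT), the oocyte-specific knockout Dpagt1F/F Gdf9CRE/+ (GcKO) and the granulosa cell-specific knockout Dpagt1F/F Amhr2CRE/+ (AmcKO). The Gdf9-driven recombinase acts in oocytes from the primordial follicle stage and the Amhr2-driven one in granulosa cells, and the D166G allele came from an ENU mutagenesis program. WT was the control of every group, and the labels give no floxed littermates without the recombinase as a group of their own. Nothing in the labels ties a library to separate animals, so that p-values measure the spread between libraries.

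N-linked glycans are assembled sugar by sugar on the membrane lipid dolichol. DPAGT1 starts the chain on the cytosolic face by adding GlcNAc phosphate to dolichol phosphate, the ALG enzymes lengthen it, and after flipping into the lumen the finished oligosaccharide is passed by the oligosaccharyltransferase to asparagines of nascent proteins. The zona pellucida proteins made by growing oocytes are heavily N-glycosylated.

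The mutated codon is shown because it defines the MUT group. The gene occupies chromosome 9 of GRCm38 from 44326019 to 44333900 (forward strand). A497G, counted from the start codon, falls at 44328161, a coding base of exon 3. The reference reads as follows over 61 nt of the spliced transcript, which continues into the following exon, with codon 166 in capitals. The substitution turns this codon into GGC, protein change D166G.
Dpagt1: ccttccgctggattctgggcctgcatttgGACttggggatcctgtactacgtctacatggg

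Libraries differed in scale before any gene was compared. FPKM values, which are fragments scaled to transcript length and to the mapped fragments of a library, summed to 1167362 to 1226005 in WT and 883256 to 1107925 in AmcKO. They summed to 589617 to 611597 in the MUT libraries and 482314 to 684212 in the GcKO libraries. FPKM values hold no counts, but low values moved in steps, and a step was worth 2.27 to 2.64 times as much in WT as in MUT replicate 2, against 0.895 to 1.48 times in the GcKO libraries and 1.197 to 1.48 times in the AmcKO libraries. Of all 1362 tested transcripts over 50 FPKM, 58.3% were lower in MUT and 60.2% in GcKO than in WT, and of the 6474 under 5 FPKM, 1.13% and 1.22%. The labels number the WT and AmcKO libraries 4 to 6 and the MUT and GcKO libraries 1 to 3 and do not say what these numbers stand for. Every comparison of MUT or GcKO with WT or AmcKO therefore also compares numbers 1 to 3 with 4 to 6. In these comparisons, whatever the numbers stand for cannot be told apart from genotype. The 10 oocyte markers summed to 37856 to 43045 FPKM in WT and 29411 to 38875 in AmcKO. These sums were 14767 to 15624 in MUT and 13967 to 20180 in GcKO. Dppa3 made up most of each sum, averaging 27932.5 FPKM in WT, 8421 in MUT and 9872 in GcKO. Of the 10 markers, 4 were called lower in MUT (Zp2, Zp3, Ooep and Dppa3) and 3 in GcKO (Zp2, Ooep and Dppa3). Of all tested genes, 11.3% and 11.4% were lower, and of those over 50 FPKM 58.3% and 60.2%. All 10 differences were negative in MUT, but 2 were positive in GcKO. Bmp15 averaged 1527 FPKM in WT, 1405 in MUT and 1564 in GcKO, and Kit 16.1, 14.99 and 24.8. Granulosa cell markers Amhr2, Amh and Foxl2 were listed at 0 in all libraries, and the 11 such markers summed to 17.6 to 23.1 FPKM in WT and 11.51 to 22.7 in AmcKO, and to 14.7 to 27.2 and 14.3 to 28.9 in MUT and GcKO. Without Cyp19a1, which made up most of the WT and AmcKO sums, the other 10 summed to 2.53 to 3.93 FPKM in WT and 1.54 to 3.45 in AmcKO, but to 5.16 to 13.8 in MUT and 5.34 to 8.05 in GcKO, without overlap. Of the 6 tested, Inha and Hsd17b1 were called higher in MUT than in WT (limma adjusted p = 0.00260 and 0.0118). Of all tested genes, 9.46% were higher. Inha stood at 5.44, 1.13 and 5.44 FPKM in MUT replicates 1, 2 and 3, and Hsd17b1 at 2.06, 0.64 and 3.09. Both stood at 0 in each WT library, where a step was worth more. Hsd17b1 reached 1 FPKM in MUT libraries only, so that it was tested only through the group where it was high.

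Levels of the 38 genes spanned the range from 0 to 1835 FPKM. The means over all libraries exceeded 50 FPKM for 6 genes, lay between 5 and 50 for 9 and under 5 for 18 that reached 1 FPKM in at least 1 library. These 33 genes were tested. The other 5, namely Dolpp1, Gfpt1, Dpagt1, Alg6 and Mpdu1, never reached 1 FPKM, and Mpdu1 was listed at 0 in all libraries. Dad1 alone made up 63.7 to 69.1% of the summed FPKM of the pathway in WT and 60.8 to 66.5% in AmcKO, but 50.1 to 52.3% in MUT and 48.3 to 52.5% in GcKO. MUT and GcKO shares lay below every WT and AmcKO share.

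**Figure D1:**
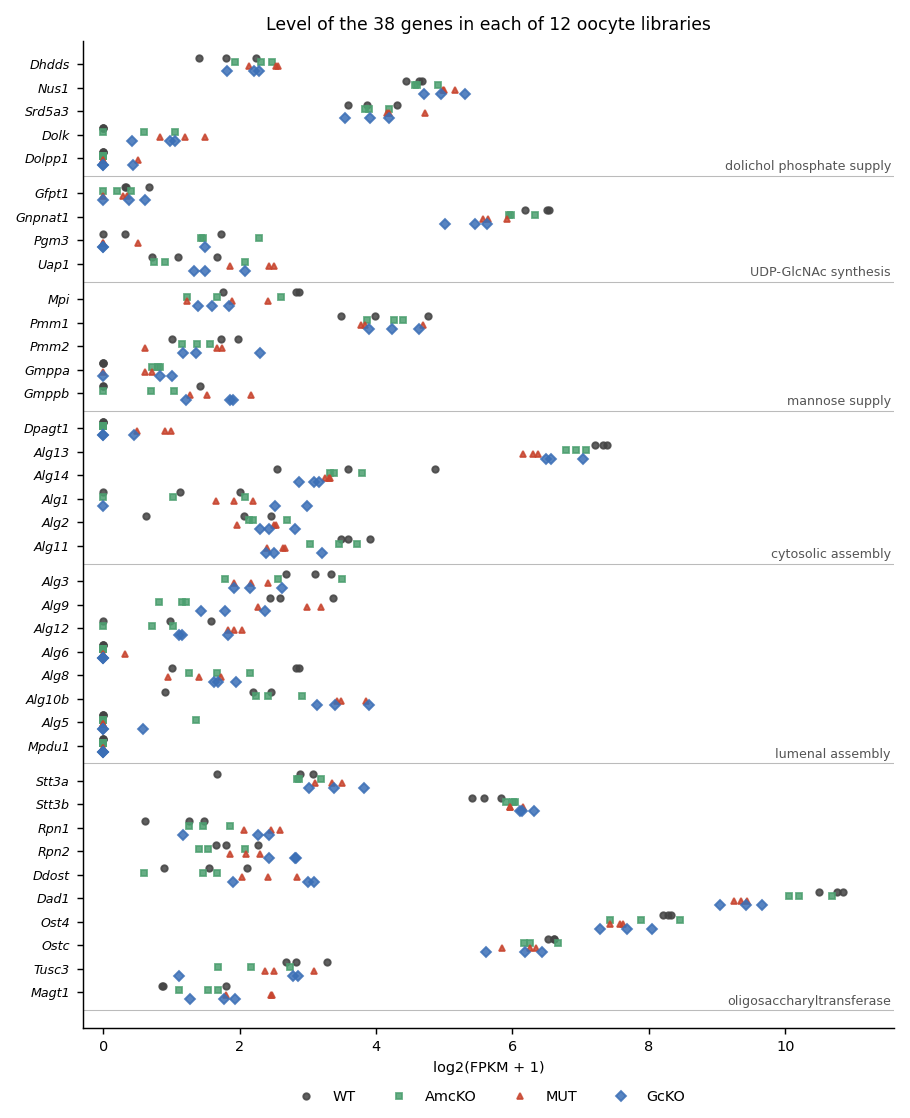
Level of each of the 38 genes, grouped by role, as log2(FPKM + 1), with 1 point per library (WT, AmcKO, MUT and GcKO, 3 libraries each). Dad1, Ost4 and Alg13 lie farthest right, and 5 genes stay below 1 FPKM in all 12 libraries.

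The high end was held mainly by short genes. By the GENCODE principal transcript, 5 of the 38 genes have a coding sequence under 600 nt (Gnpnat1, Alg13, Dad1, Ost4 and Ostc), and all 5 exceeded 50 FPKM, while the next shortest has 651 nt. Stt3b was the single gene over 50 FPKM with a long coding sequence, of 2469 nt. Across the 33 tested genes, coding length and mean level had a Spearman correlation of -0.42, given as a description over genes measured in the same libraries. The coding sequence of Ost4, the shortest subunit, is shown in full for this reason, from chromosome 5 of GRCm38 (30907422 to 30907535, reverse strand), with its start and stop codons in capitals.
Ost4: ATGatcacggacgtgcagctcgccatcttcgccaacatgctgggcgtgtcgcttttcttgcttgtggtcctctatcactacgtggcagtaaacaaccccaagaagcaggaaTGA

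Tests used limma on log2(FPKM + 1), over all 11233 genes that reached 1 FPKM in at least 1 library, with Benjamini-Hochberg adjusted p under 0.05. Differences below are differences of group means on this scale, which understates those of low genes. Of the 33 tested genes, MUT oocytes had 5 at a lower and 4 at a higher level than WT, against 11.3% lower and 9.46% higher of all genes. In GcKO, 4 were lower and 2 higher, against 11.4% and 8.71%. These counts lie near the background of all genes. Without MUT replicate 2 or 3, 5 and 4 genes of the pathway were called in MUT, and without GcKO replicate 1, 3 were called in GcKO. The shares of all genes fell too, to 8.89% lower and 4.98% higher, 8.67% and 4.76%, and 8.595% and 3.56% in these 3 fits. The median difference of the 33 genes was 0.18 in MUT and 0.19 in GcKO, against 0.12 for all genes in both. Both comparisons share the WT libraries. Of the 6 genes over 50 FPKM, 4 were lower in MUT, and 3 were lower and 1 higher in GcKO, against the 58.3% and 60.2% lower of all genes at this level. Of the 9 at 5 to 50 FPKM, 1 was lower and 1 higher in each comparison. All genes at this level had 11.8% lower and 16.0% higher in MUT, and 11.4% and 15.1% in GcKO. Of the 18 under 5 FPKM none was lower in either, and 3 were higher in MUT, against 7.09% of all genes at this level. Pooled libraries cannot tell less transcript per oocyte from fewer contributing oocytes.

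**Figure D2:**
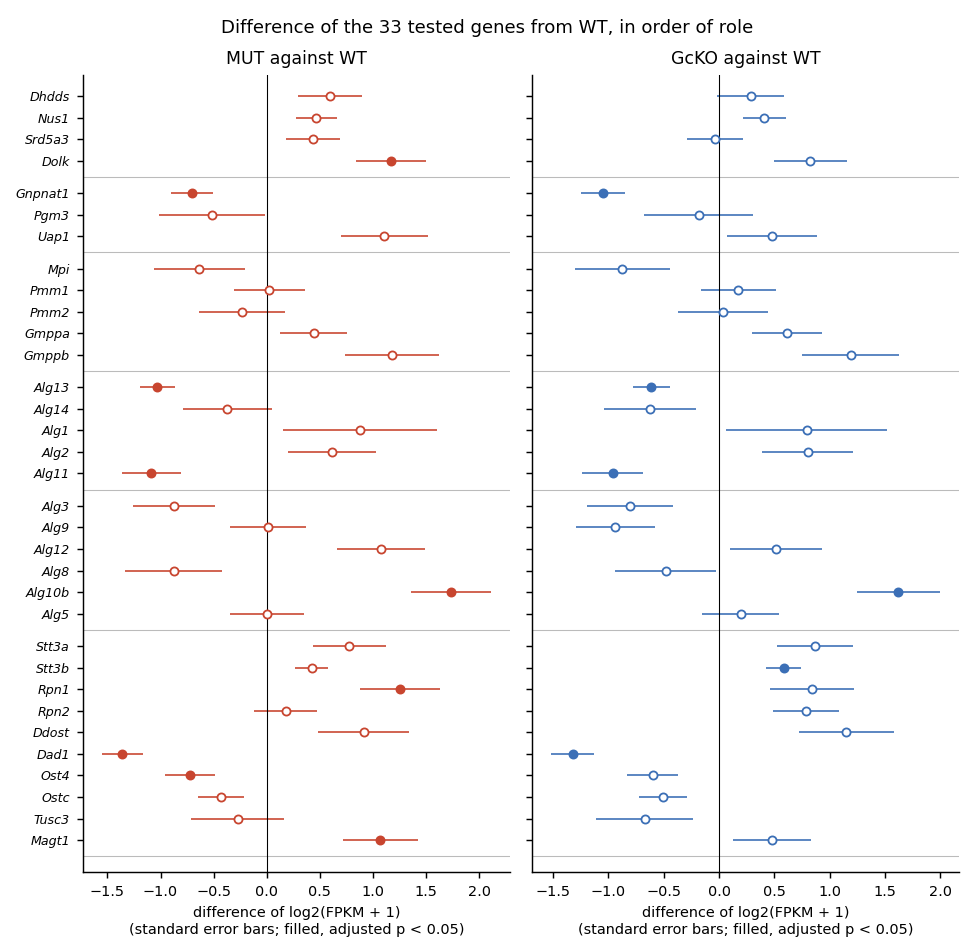
Difference from WT of each of the 33 tested genes, in MUT (left) and GcKO (right), as a difference of mean log2(FPKM + 1) with its standard error, in order of role. Filled points passed an adjusted p under 0.05, 9 in MUT and 6 in GcKO.

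Of the 10 oligosaccharyltransferase genes, 2 were called lower and 2 higher in MUT, and 1 lower and 1 higher in GcKO. The shares of all genes were 11.3% lower and 9.46% higher in MUT and 11.4% and 8.71% in GcKO. Dad1 encodes a small membrane subunit of both forms of the enzyme. It stood at 1446, 1740 and 1835 FPKM in WT, 1179, 1651 and 1066 in AmcKO, 694, 651 and 605 in MUT and 528, 687 and 810 in GcKO. All MUT and GcKO values lay below all WT and AmcKO values. Dad1 fell in MUT by 1.36 on the log2 scale (standard error 0.19, limma adjusted p = 3.4e-04) and in GcKO by 1.32 (0.19, 4.1e-04). Between AmcKO and WT its difference was -0.38 (adjusted p = 0.348). Against AmcKO, Dad1 was lower in both, by -0.97 in MUT (adjusted p = 0.00850) and -0.94 in GcKO (0.0117). With the libraries corrected by loess for mean level, an alternative chosen after seeing the data, the difference was -0.32 in MUT (adjusted p = 0.0626) and -0.23 in GcKO (0.192). The GcKO call was also lost with all libraries scaled to the same sum (-0.29, adjusted p = 0.0524) and after quantile normalization (-0.36, 0.0597). Both calls against AmcKO were lost with the same sum, quantile normalization or the loess correction (differences from -0.36 to -0.18), and the GcKO call also without a variance trend or with only the 2 groups fitted (adjusted p = 0.0657 and 0.0855).

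Ost4 and Ostc encode further small subunits, Ost4 of both forms of the enzyme and Ostc of the form built on STT3A. Ost4 read 293, 321 and 309 FPKM in WT and 197, 191 and 172 in MUT, without overlap. In AmcKO it read 172, 350 and 236 and in GcKO 155, 203 and 264, and AmcKO spanned the WT values. Its call in MUT (-0.72, adjusted p = 0.0424) was lost in each of the 6 fits that left out a single MUT or WT library (adjusted p up to 0.129). Much of its annotated transcript, 57.0% of the 50-mers, is shared with transcripts of other genes, mainly Agbl5 on the opposite strand, so that without a stated strand setting its level is uncertain. Ostc lay at 91.2 to 96.8 FPKM in WT, 56.5 to 80.1 in MUT and 47.7 to 85.1 in GcKO and was called in neither comparison.

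The catalytic subunits STT3A and STT3B are encoded by related genes. To show how close they are where the conserved catalytic motif is encoded, 60 nt of each coding sequence follow, with the codons of the motif in capitals; 43 of the 60 bases are identical. The Stt3a stretch is spliced.
Stt3a: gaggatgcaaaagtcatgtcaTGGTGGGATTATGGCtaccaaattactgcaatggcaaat
Stt3b: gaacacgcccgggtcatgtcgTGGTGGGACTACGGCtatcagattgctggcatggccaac
Both lie on the reverse strand of chromosome 9, but no 50-mer of either annotated transcript occurs in transcripts of another gene. Stt3b was the main catalytic subunit transcript in all 12 libraries, at 41.4 to 79.1 FPKM against 2.17 to 13.1 for Stt3a. Stt3b read 56.1, 46.9 and 41.4 FPKM in WT, 63.6, 64.5 and 59.2 in AmcKO, 61.6, 70.5 and 61.3 in MUT and 79.1, 68.2 and 69.5 in GcKO. The WT libraries were the 3 lowest of the 12. The rise in GcKO was 0.58 (standard error 0.16, limma adjusted p = 0.0175), and the difference in MUT was 0.42 (0.16, 0.0728), which was called under 4 other scalings of the libraries. Without WT replicate 6 or GcKO replicate 1, the GcKO difference did not pass (adjusted p up to 0.0685). Stt3a differed by 0.78 in MUT and 0.86 in GcKO and was not called (adjusted p = 0.129 and 0.0935).

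**Figure D3:**
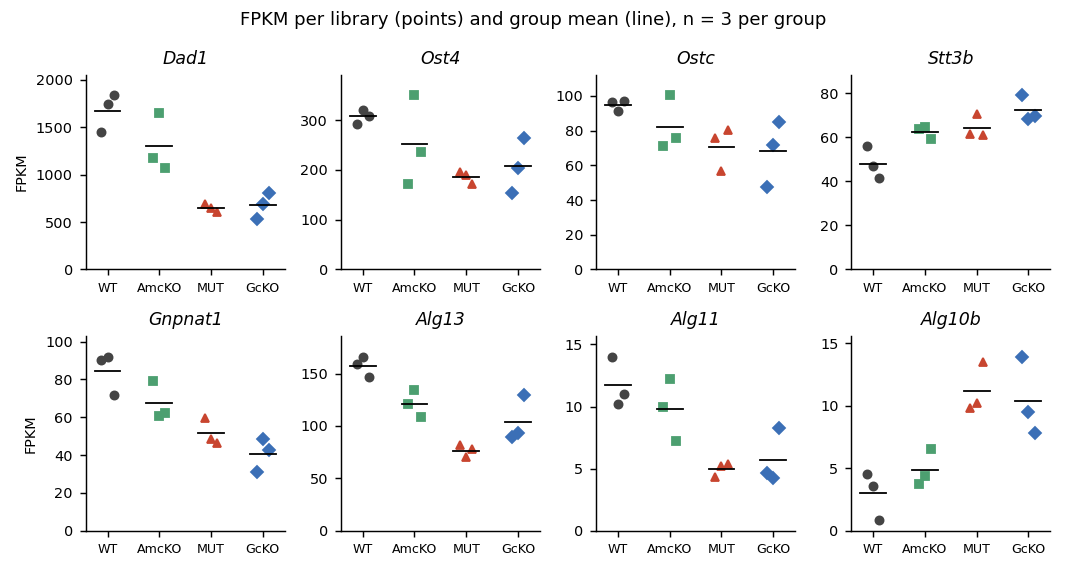
FPKM per library of 8 genes (points; WT, AmcKO, MUT and GcKO, 3 libraries each) with the group mean as a line, each axis starting at 0. MUT and GcKO values lie below the WT values for Dad1, Ost4, Ostc, Gnpnat1, Alg13 and Alg11, and above them for Stt3b and Alg10b.

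A ratio of 2 genes within a library does not depend on a scale common to all its genes. It can still move with a shift that differs by level, and Dad1 and Stt3b averaged 1074 and 61.8 FPKM. The ratio of Dad1 to Stt3b, chosen after their values were seen, was 25.8, 37.1 and 44.3 in WT, 18.5, 25.6 and 18.03 in AmcKO, 11.3, 9.22 and 9.88 in MUT and 6.68, 10.1 and 11.7 in GcKO. MUT and GcKO lay below AmcKO, and AmcKO below WT, without overlap. Each of these comparisons had p = 0.10 by an exact permutation test, two-sided, the smallest that 3 against 3 libraries allow. The ratio of Dad1 to Ost4 was 4.93 to 5.93 in WT and 4.52 to 6.87 in AmcKO, but 3.41 to 3.52 in MUT and 3.07 to 3.41 in GcKO, so that the listed values of the 2 did not move in proportion. Whether the transcripts did is uncertain, because the level of Ost4 is uncertain as stated above. Dad1 and Ost4 also differ in mean level (1074 and 239 FPKM).

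The remaining subunits were low. Rpn1 encodes ribophorin I and read 1.39, 0.52 and 1.80 FPKM in WT, 1.77, 1.39 and 2.62 in AmcKO, 3.20, 4.52 and 5.00 in MUT and 4.37, 1.24 and 3.84 in GcKO. It rose in MUT by 1.26 (standard error 0.38, limma adjusted p = 0.0309), and its call was lost in 3 of the 6 fits without a single library (WT replicate 5, MUT replicate 2 or MUT replicate 3). Magt1 and Tusc3 encode alternative oxidoreductase subunits of the STT3B form. Magt1 read 0.81, 0.83 and 2.50 FPKM in WT, 1.17, 2.21 and 1.89 in AmcKO, 4.56, 2.49 and 4.53 in MUT and 2.41, 2.82 and 1.41 in GcKO. It was called higher in MUT (1.07, adjusted p = 0.0465), although MUT replicate 2 lay within the WT range, and without WT replicate 4 or 5 or MUT replicate 1 or 3 the call was lost (adjusted p up to 0.143). Tusc3 differed by -0.27 in MUT and -0.67 in GcKO and was not called. Within libraries, Tusc3 exceeded Magt1 by 3.47 to 7.34 times in WT, and the ratio was 0.996 to 3.00 in AmcKO, 0.911 to 1.88 in MUT and 0.825 to 2.45 in GcKO, all below WT. The WT ratios are uncertain, because the Magt1 values in WT rest on few fragments. Rpn2 and Ddost, which encode further core subunits, were called in no comparison, with differences from 0.18 to 1.15 in MUT and GcKO.

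On the cytosolic face, the targeted gene could not serve as a check of the groups. Dpagt1 stood at 0 in every WT and AmcKO library, 0.88, 0.41 and 0.98 FPKM in MUT and 0, 0.37 and 0 in GcKO. With the smallest step of these values taken as 1 fragment, the MUT libraries held about 2, 1 and 2 fragments, and 3 fragments would have been worth 2.77 to 3.23 FPKM in WT against 1.22 to 1.47 FPKM in MUT. The MUT values lay below 3 fragments in their own libraries, and the same FPKM in WT would also have been worth less than 3 fragments. At so few fragments the levels of MUT and WT cannot be compared. With no filter on low values, Dpagt1 was among the genes that limma called higher in MUT than in WT. An exact permutation test of MUT against WT, two-sided, had p = 0.10, the smallest that 3 against 3 libraries allow. Because WT stood at 0 at its larger steps, neither of these results compares the levels of MUT and WT.

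ALG13 and ALG14 form the enzyme that adds the second GlcNAc, ALG14 anchoring the catalytic ALG13 at the membrane. Alg13, on the X chromosome, read 159, 166 and 147 FPKM in WT, 121, 134 and 109 in AmcKO, 81.7, 70.1 and 77.7 in MUT and 89.0, 93.4 and 129.7 in GcKO. All other libraries lay below WT, with MUT lowest. The fall in MUT was 1.03 on the log2 scale (standard error 0.17, limma adjusted p = 8.1e-04) and passed in all 6 fits without a single library. In GcKO the difference was -0.61 (0.17, 0.0183), and against AmcKO the MUT level was lower by -0.66 (0.17, 0.0297). The GcKO call was lost when GcKO replicate 1, GcKO replicate 2 or WT replicate 5 was left out (limma adjusted p up to 0.0715), and the call against AmcKO without AmcKO replicate 4 or 5 or any one MUT replicate (up to 0.121). After quantile normalization Alg13 differed by -0.50 in MUT and -0.03 in GcKO, and scaled to the same sum by -0.04 in MUT (adjusted p = 0.831). Alg14, at 4.87 to 28.1 FPKM in WT and 6.30 to 9.02 in MUT and GcKO together, was not called, so that the catalytic subunit transcript exceeded that of its anchor in each library, by 5.23 to 32.7 times.

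ALG11 adds the last mannoses on the cytosolic face. Alg11 read 14.0, 10.2 and 11.0 FPKM in WT, 9.98, 12.2 and 7.20 in AmcKO, 4.29, 5.23 and 5.38 in MUT and 4.65, 4.21 and 8.29 in GcKO. MUT and GcKO lay below WT, and AmcKO overlapped both WT and GcKO. The differences were -1.09 in MUT and -0.96 in GcKO (adjusted p = 0.0136 and 0.0249), and they remained called after quantile normalization and after the loess correction, the latter of which ended both calls of Dad1. Scaling to the same sum left differences of -0.21 and -0.04, not called. The MUT call was lost without MUT replicate 1 (limma adjusted p = 0.0523), and the GcKO call with GcKO replicate 1, GcKO replicate 2 or WT replicate 4 left out (at most 0.0984). The mannosyltransferase genes Alg1 and Alg2 were not called, at 0 to 6.95 and 0.55 to 6.03 FPKM.

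In the lumen, ALG10B adds the terminal glucose that the oligosaccharyltransferase recognises. Alg10b read 4.53, 3.58 and 0.88 FPKM in WT, 3.75, 4.35 and 6.53 in AmcKO, 9.79, 10.2 and 13.5 in MUT and 13.9, 9.54 and 7.80 in GcKO. All MUT and GcKO values exceeded all WT and AmcKO values. The rise was 1.73 in MUT (standard error 0.37, limma adjusted p = 0.00529) and 1.62 in GcKO (0.37, 0.00780), the largest of the 33 genes in both. It passed in all 12 fits without a single library and under each scaling in both comparisons. With MUT replicate 2, the mutant library lowest in Inha, as the only MUT library, its spread was assumed to be that of the other groups. The MUT difference of Alg10b was then 1.63 (adjusted p = 0.158), that of Rpn1 1.35, of Dolk 1.49, of Alg11 -1.02, of Alg13 -1.15 and of Dad1 -1.35, while Magt1 went from 1.07 to 0.63. Alg13 and Dad1 were called in this fit, in which 2.74% of all genes were lower and 0.636% higher. The part of granulosa cell transcripts in the MUT differences was not tested.

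Alg9, a mannosyltransferase of the lumen, lay below WT in both knockouts without overlap, while MUT overlapped WT. It read 4.47, 5.06 and 9.30 FPKM in WT, 1.22, 0.77 and 1.32 in AmcKO, 3.82, 8.16 and 6.91 in MUT and 4.20, 1.72 and 2.45 in GcKO. AmcKO was lowest without overlap with any other group. Alg9 was higher in MUT than in AmcKO by 1.75 (standard error 0.36, limma adjusted p = 0.0100, but 0.0554 without MUT replicate 2), and the difference between AmcKO and WT was -1.74 (adjusted p = 0.0649). The difference between GcKO and WT was -0.94 (limma adjusted p = 0.0804), and it was called after quantile normalization and after the loess correction. Between MUT and WT it was 0.011. Alg9 shares chromosome 9 with Dpagt1, and whether its level followed the floxed allele was not tested. Of its annotated transcript, 16.0% of the 50-mers are shared with 1110032A03Rik on the opposite strand. The other lumenal genes were not called: Alg3 at 2.46 to 10.4, Alg8 at 0.93 to 6.29, Alg12 at 0 to 3.10 and Alg5 at 0 to 1.57 FPKM.

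Among the genes of precursor supply, Gnpnat1 was the most abundant. It encodes the acetyltransferase that makes GlcNAc 6-phosphate on the route to UDP-GlcNAc, the substrate of DPAGT1. Gnpnat1 read 90.3, 92.0 and 71.6 FPKM in WT, 79.2, 60.7 and 62.0 in AmcKO, 59.4, 48.8 and 46.6 in MUT and 31.1, 48.4 and 42.7 in GcKO. MUT and GcKO lay below WT and AmcKO. It fell in GcKO by 1.05 (standard error 0.20, limma adjusted p = 0.00215) and in MUT by 0.70 (0.20, 0.0218), the latter call being lost without WT replicate 4 or 5 or MUT replicate 2 or 3 (adjusted p up to 0.0840). However, 88.5% of the 50-mers of its annotated transcript are shared, mainly with Styx on the opposite strand, so that its level is uncertain. Uap1 and Pgm3, of the same route, were not called against WT, and Gfpt1, its entry enzyme, stayed at 0 to 0.59 FPKM.

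Dolichol phosphate supply begins with DHDDS and its partner NUS1, which together extend the isoprenoid chain. Nus1 lay at 20.6 to 24.4 FPKM in WT, 30.5 to 34.8 in MUT and 24.97 to 38.6 in GcKO, without overlap with WT, and its differences of 0.47 and 0.41 were not called (adjusted p = 0.103 and 0.152). Dolk encodes dolichol kinase. It stood at 0 in each WT library, at 1.08, 0.51 and 0 FPKM in AmcKO, 0.78, 1.80 and 1.31 in MUT and 0.35, 0.97 and 1.08 in GcKO, and it was called higher in MUT (limma adjusted p = 0.0221). A value of 3 steps of its scale would have been worth 2.45 to 2.86 FPKM in WT, above every level listed, and without WT replicate 6 or MUT replicate 2 or 3 it was not called. Dhdds, at 1.65 to 4.91 FPKM, and Srd5a3, at 10.7 to 25.3 FPKM, were not called.

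Mannose supply showed no call in any of the 6 comparisons. The 2 phosphomannomutase genes stood apart in level, with Pmm1 at 10.2 to 26.2 FPKM and Pmm2 at 0.53 to 3.91 FPKM, and their groups overlapped in each comparison with WT. Gmppa and Gmppb, which encode the regulatory and catalytic subunits of GDP-mannose pyrophosphorylase, stayed at 0 to 1.01 and 0 to 3.51 FPKM. Gmppb differed by 1.18 in MUT and 1.19 in GcKO (adjusted p = 0.0733 and 0.0725). Mpi, at 1.34 to 6.29 FPKM, was not called.

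**Figure D4:**
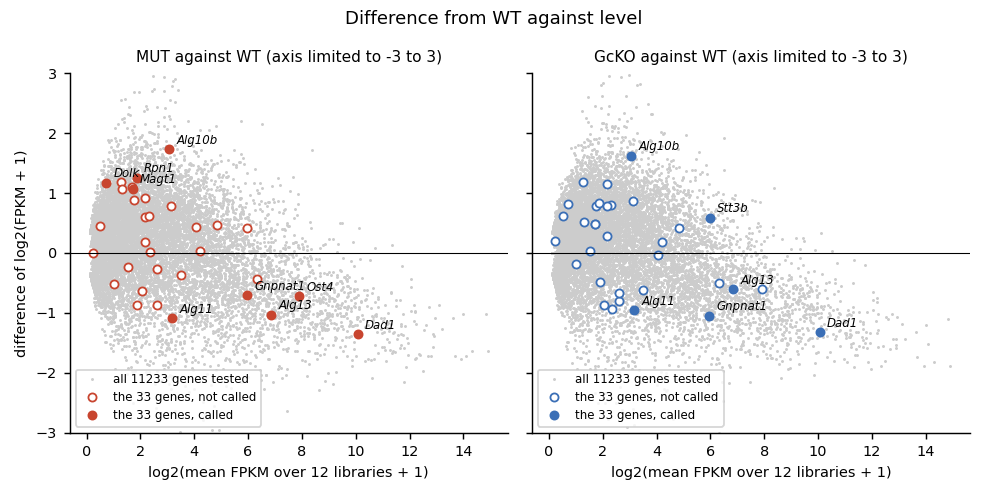
Difference from WT against mean level for MUT (left) and GcKO (right), on log2(FPKM + 1) scales, with all 11233 tested genes in grey and the 33 genes of the pathway in colour, filled where called. Abundant genes lie mostly below 0, and Dad1, Alg13 and Ost4 lie among them, while Alg10b lies above.

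The level of a gene went along with its difference. Across the 33 genes, the Spearman correlation of mean level with the difference from WT was -0.48 in MUT and -0.45 in GcKO, and across all 11233 genes -0.23 and -0.25, as descriptions over genes of the same libraries. Scaling all libraries to the same sum raised the median difference of all genes from 0.12 to 0.71 in MUT and 0.74 in GcKO, and the split of the pathway's calls became 1 lower and 17 higher in MUT and 0 lower and 18 higher in GcKO, against 2.23% lower and 41.3% higher of all genes in MUT and 2.14% and 42.4% in GcKO. Relative to that shifted median, Dad1 stood at -1.08 in MUT and -1.03 in GcKO, Alg13 at -0.76 and -0.32, Alg11 at -0.92 and -0.79, Ost4 at -0.44 and -0.31, Gnpnat1 at -0.44 and -0.77, Stt3b at 0.69 and 0.86 and Alg10b at 1.80 and 1.70. As plain differences, Alg13 turned higher in GcKO under this scaling (0.42, adjusted p = 0.0237), and Ost4 and Gnpnat1 turned positive in MUT (0.27 and 0.28, not called).

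**Figure D5:**
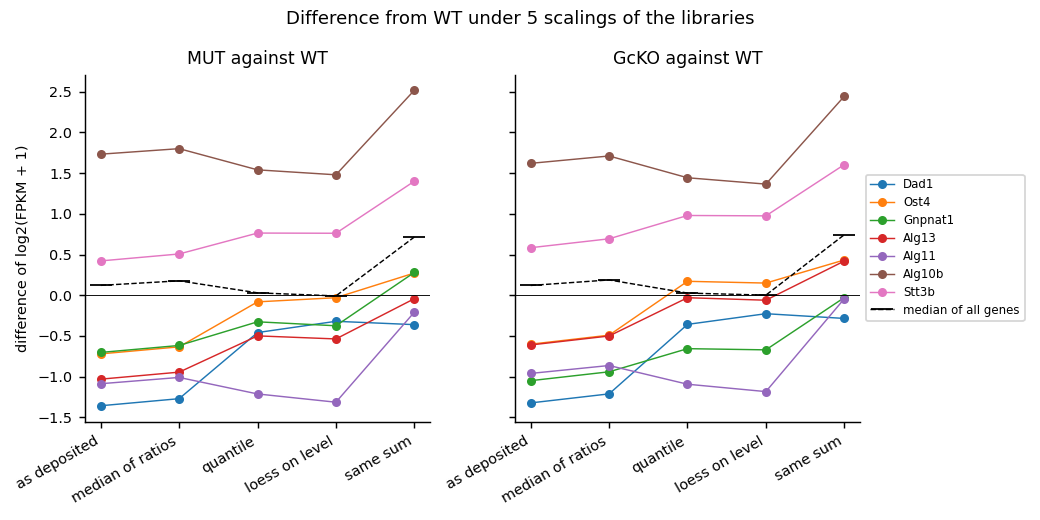
Difference from WT of 7 genes in MUT (left) and GcKO (right) under 5 scalings of the libraries, as a difference of mean log2(FPKM + 1), with the median of all tested genes dashed. Alg10b and Stt3b stay above the median of all genes under all 5 scalings.

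Between the knockouts and the mutant, few genes of the pathway differed. AmcKO against WT gave 0 calls by limma, against 0.116% lower and 0.0979% higher of all genes. An unadjusted limma p under 0.05 was reached by 4 of the 33 genes, against 15.6% of all genes. GcKO against MUT gave 0 calls, against 0.134% and 0.0712%, with 2 genes at an unadjusted p under 0.05, against 6.60% of all genes. Against AmcKO, 2 genes were lower in GcKO (Dad1 and Gnpnat1) and none higher, against 4.79% and 0.668% of all genes, and in MUT 2 were lower (Dad1 and Alg13) and 1 higher (Alg9), against 5.07% and 1.42%. The call of Gnpnat1 against AmcKO was lost without any one AmcKO replicate or GcKO replicate 1 or 3 (limma adjusted p up to 0.187).

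Genes next to the pathway were listed by function. Of 7 other assembly and transfer factors tested, Dpm2, a subunit of dolichol phosphate mannose synthase, was the one called, lower in MUT (-0.81) and GcKO (-0.75, limma adjusted p at most 0.00895). Of 7 tested genes of isoprenoid supply, Hmgcs1, the cytosolic HMG-CoA synthase, was lower in both (-0.62 and -0.65), and of 5 genes of sugar nucleotide side routes, Gnpda2, a glucosamine 6-phosphate deaminase, was lower in both (-1.18 and -0.90). Of 10 tested genes of glycan trimming and folding lectins, Canx was lower in both and 3 were higher in GcKO, namely Ganab, Edem2 and Edem3 (1.27, 1.10 and 1.11). Ganab stood at 1.28, 0.48 and 0 FPKM in WT and Edem3 at 0.25, 0.28 and 0.24, levels that rest on few fragments in WT, so that the size of their rises is uncertain. Edem2 stood at 6.93, 6.96 and 3.73 FPKM in WT. Canx encodes the lectin chaperone calnexin and read 400.4, 382 and 338 FPKM in WT, 468, 450.1 and 402 in AmcKO, 158, 141 and 129 in MUT and 95.6, 117 and 136 in GcKO. MUT and GcKO lay far below WT and AmcKO, while Calr, which encodes the related calreticulin, stood at 27.9 to 46.5 FPKM in all libraries and was not called. The differences of Canx were -1.39 in MUT and -1.68 in GcKO (adjusted p = 1.1e-04 and 3.9e-05). Dpm2, Hmgcs1, Gnpda2 and Canx averaged 131, 140, 52.2 and 268 FPKM over all libraries. Of all genes over 50 FPKM, 58.3% were lower in MUT and 60.2% in GcKO, with median differences of -0.70 and -0.74. Calr averaged 39.6 FPKM, and of all genes at 5 to 50 FPKM 11.8% and 11.4% were lower. Of all tested genes, 8.71% were higher in GcKO.

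Promoters were searched for elements of the unfolded protein response and a cyclic AMP response element, on both strands, in RefSeq windows of 250 bases before to 50 after the start (GRCm38.p6), which 31 of the 38 genes matched. The endoplasmic reticulum stress element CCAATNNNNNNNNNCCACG occurred in Alg12 alone, against 0.119% of all 32851 windows, the element TGACGTGG in none, against 0.676%, and TGACGTCA in Alg13 alone, against 1.79%. The Alg12 match, which starts 220 bases before the gene start, is shown with its flanks (chromosome 15, 88819500 to 88819558, reverse strand; the match in capitals). Alg12 stood at 2.001, 0 and 0.97 FPKM in WT, 0.64, 0 and 1.04 in AmcKO, 2.76, 2.57 and 3.10 in MUT and 1.23, 1.15 and 2.56 in GcKO, and was not called (adjusted p = 0.0822 in MUT and 0.411 in GcKO).
Alg12: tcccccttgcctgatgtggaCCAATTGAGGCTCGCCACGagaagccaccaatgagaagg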

How the data were processed

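Libraries were amplified with Smart-seq2 and sequenced with paired reads of 150 nt. Per the labels, the authors aligned reads to mm10 with TopHat2 2.0.13 and obtained FPKM values with Cufflinks 2.2.1 and Cuffnorm. The deposited FPKM table also holds Cuffdiff fold changes and p-values of 6 comparisons, which were not used. The gene annotation and strand setting are not given in the sources used here. The 38 genes and all lists were chosen with earlier results of these data known. Genes that reached 1 FPKM in any library were fitted with limma 3.58.1 (R 4.3.3) on log2(FPKM + 1) with a variance trend. The fit held all 12 libraries, left 8 residual degrees of freedom and gave 6 contrasts, each adjusted over 11233 genes. Values per library were printed for Dpagt1, genes called in any contrast and paired genes, for Canx and Alg12 besides. Positions and shared 50-mers came from GENCODE M21 (GRCm38), promoters from RefSeq. On simulated data for MUT against WT (10321 genes fitted), 74.5% of 4-fold and 32.4% of 2-fold changes were recovered, with 3 false calls. The simulation changed 200 genes in MUT and gave the libraries no difference of scale and no shift with level. Its number of false calls therefore cannot be carried over to these libraries, which differ in both. Alternatives were another pseudocount (0.1), other filters, 4 other scalings, no variance trend, only 2 groups, a fold change over 2, the label number as a block and each library left out.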

Additional observations from a re-analysis of the deposited data

How the results depend on the processing

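Counts of called genes of the pathway moved by over 1.5 times under some alternatives. For MUT against WT, the count of 9 became 18 with libraries scaled to the same sum, 5 with quantile normalization, 4 after the loess correction for mean level and 2 without MUT replicates 1 and 3 (the last 2 alternatives chosen after seeing the data), and lay between 4 and 8 with each library left out. The shares of all genes called lower and higher moved with it, from 11.3% and 9.46% to 2.23% and 41.3%, 6.41% and 6.70%, 7.36% and 6.39%, and 2.74% and 0.636% in the first 4 of these. For GcKO against WT, 6 became 18 with the same sum, 3 with only the 2 groups and 3 with a fold change over 2, and lay between 3 and 9, with 11.4% and 8.71% of all genes becoming 2.14% and 42.4%, 10.4% and 4.80%, and 6.37% and 5.84%. For AmcKO against WT, 0 became 1 (Alg9) after the loess correction. For GcKO against AmcKO, 2 became 10 with the same sum, 1 with no filter and with median-of-ratios scaling, and 0 with quantile normalization, no variance trend, only the 2 groups, a fold change over 2 and the loess correction, and lay between 1 and 2. For MUT against AmcKO, 3 became 12 with the same sum, 6 with only the 2 groups, 1 with quantile normalization, a fold change over 2 and the loess correction, and 0 without MUT replicates 1 and 3, and lay between 1 and 3. GcKO against MUT stayed at 0. The shares of all genes called lower and higher moved in these contrasts too. With the same sum they went from 4.79% and 0.668% to 1.14% and 21.9% in GcKO against AmcKO. In MUT against AmcKO they went from 5.07% and 1.42% to 1.47% and 21.3% with the same sum, and to 6.15% and 1.96% with only the 2 groups. The loess correction moved those of AmcKO against WT from 0.116% and 0.0979% to 0.214% and 0.160%. The cause was not tested. The same sum reversed Gnpnat1 (0.28) and Ost4 (0.27) in MUT against WT, Alg13 (0.42) in GcKO against WT, Gnpnat1 (0.0052) in GcKO against AmcKO and Alg13 (0.037) in MUT against AmcKO. With the label number as a replicate block, 0 genes were called in AmcKO against WT and 0 in GcKO against MUT. Same-numbered libraries correlated at -0.03 to 0.02 and -0.04 to 0.04 in their deviations from the group means. With 3 libraries per group, this cannot tell what equal numbers stand for, and the groups of the other contrasts share no numbers. FPKM values carry no counts, and genes under about 3 FPKM rest on few fragments in WT.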
